A study of Homo sapiens with 2 samples.

Results

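The genes described here are 42 genes of mitosis, the phase in which a cell separates its copied chromosomes into daughter cells. They were chosen by name and function, with earlier results of these data known but by no rule on measured values, from the 57485 genes listed in each library: the cyclins, kinases and phosphatases that start mitosis, the spindle checkpoint, the kinetochore, the mitotic kinesins, condensin, and the partners of the anaphase-promoting complex. RNA was sequenced in 2 libraries from ARP1, a human multiple myeloma cell line, in which a lentivirus carries a doxycycline-inducible short hairpin RNA against SRD5A1, the type I steroid 5α-reductase. The library labelled without Dox came from untreated cells, and the library labelled with Dox came from cells given doxycycline (Dox), which switches the hairpin on. For this library the genotype field gives SRD5A2 where the title gives SRD5A1. The libraries are called without Dox and with Dox after these labels. Each condition had 1 library, so no difference below has a replicate check, no p-value is given, and the intervals cover counting error only. Doxycycline and the hairpin cannot be told apart, because no Dox-treated cells without the hairpin were analysed here.

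Entry into mitosis is driven by the kinase CDK1 bound to cyclin B. Aurora and Polo-like kinases then build the spindle, the kinetochore ties each chromosome to spindle microtubules, and the checkpoint holds back the anaphase-promoting complex until every chromosome is attached. Most of these genes are transcribed in G2 and M phase, through the MuvB complex, B-MYB and FOXM1, so in a culture their RNA levels move with the share of dividing cells. The study measured the cell cycle by propidium iodide staining after the knockdown, and the RNA of the mitotic genes bears on the same question. In a bulk library, fewer cells in mitosis and less mitotic RNA per cell cannot be told apart.

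The libraries held 45918570 expected counts without Dox and 48728927 with Dox. SRD5A1 RNA went against the label: it stood at 13.04 FPKM (fragments per kilobase of transcript, scaled to sequencing depth) without Dox and at 25.88 FPKM with Dox. Every direction below, with Dox over without, therefore rests on the labels of the 2 libraries, and each would turn round if the labels were exchanged. Over all 57485 genes, FPKM summed to 911506 without Dox and 852316 with Dox, so the summed levels below rest on unequal totals. Plasma cell markers were abundant, with SDC1 (CD138) at 345 and 237 FPKM, IRF4 at 410 and 514 FPKM and XBP1 at 834 and 716 FPKM. SLAMF7, at 15.7 and 41.8 FPKM (log2 fold change 1.40), and TNFRSF17 (BCMA), at 97.7 and 204 FPKM (1.06), were more than 2-fold higher with Dox. Of the 10 plasma cell markers listed, 9 were tested, with a median log2 fold change of 0.00, and CD27 stayed under 1 FPKM. The summed level of the 10 was 7842 FPKM without and 5820 FPKM with Dox, most of it JCHAIN, at 5444 and 3515 FPKM. Of 12 markers of other cells, 4 reached 1 FPKM (KRT18, EPCAM, PAX5 and HBB), CD3D had a count of 0 in both libraries, and the summed level was 10.86 and 6.53 FPKM.

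Many mitotic promoters carry a CHR element (TTTGAA) and CCAAT boxes, the letters through which MuvB and NF-Y are known to bind. RefSeq promoter windows on GRCh38.p14, from 250 bases before to 50 bases after the start, were given for 35 of the 42 genes, and AURKA, BIRC5, BUB3, FOXM1, TPX2, TTK and UBE2C were not in that table. Stretches of up to 120 bases were cut to those upstream of any annotated exon, which left none for CCNB1, PLK1 and NDC80, among others. CDK1, KIF2C, BUB1B, CENPE and ANLN were among the genes whose stretch held neither motif. The stretches below are examples that do hold TTTGAA or CCAAT, and do not stand for all 35 genes. They show genes that were lower with Dox (CDC20, PTTG1, MKI67, CENPF) and genes that were higher (KIF11, KIF4A). Each is written 5′ to 3′ on the strand of the gene, and capitals mark TTTGAA or CCAAT on either strand (TTCAAA and ATTGG on the other), which overlap within single capital runs in PTTG1 and MKI67.
CDC20, chr1:43358861-43358954, plus strand: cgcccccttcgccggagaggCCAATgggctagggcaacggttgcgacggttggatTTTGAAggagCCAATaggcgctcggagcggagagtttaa
PTTG1, chr5:160421735-160421821, plus strand: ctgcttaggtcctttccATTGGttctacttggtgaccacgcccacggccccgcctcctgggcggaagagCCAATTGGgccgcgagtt
MKI67, chr10:128126424-128126543, minus strand: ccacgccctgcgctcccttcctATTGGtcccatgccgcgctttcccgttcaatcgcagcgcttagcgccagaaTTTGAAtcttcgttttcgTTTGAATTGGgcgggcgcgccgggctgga
CENPF, chr1:214603075-214603194, plus strand: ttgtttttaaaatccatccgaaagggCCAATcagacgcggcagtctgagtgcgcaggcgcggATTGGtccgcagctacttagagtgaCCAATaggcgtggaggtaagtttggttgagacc
KIF11, chr10:92593010-92593129, plus strand: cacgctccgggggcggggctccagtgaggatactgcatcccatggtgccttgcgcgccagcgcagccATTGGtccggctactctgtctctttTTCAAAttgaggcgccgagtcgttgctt
KIF4A, chrX:70289984-70290089, plus strand: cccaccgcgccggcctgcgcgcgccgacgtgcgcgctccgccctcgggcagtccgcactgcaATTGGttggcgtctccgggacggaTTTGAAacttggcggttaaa

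TTTGAA on either strand was in a window of 25 of the 35 genes (71.4%), against 18.2% of the 27305 genes with a window. CCAAT was in a window of 26 (74.3%), against 39.7% of all genes. The G/C-rich letters GGCGG were in a window of all 35, against 61.5% of all genes. Of 2 E2F motifs, TTTCGCGC was in a window of CDK1 alone (2.86%, against 0.63% of all genes) and TTTGGCGC in none (against 0.795%). The median log2 fold change was −0.05 for the 25 genes with TTTGAA and −0.52 for the 10 without. It was −0.30 for the 26 with CCAAT and 0.29 for the 9 without. The medians thus lay apart, while the ranges overlapped. With TTTGAA values ran from −1.23 (SPC25) to 0.71 (NDC80), and without it from −1.08 (CCNB1) to 0.62 (CENPE). With CCAAT they ran from −1.23 (SPC25) to 0.67 (CDC25C), and without it from −0.89 (BUB1B) to 0.71 (NDC80). The differences between classes were not tested. CDC20 and KIF4A, which both carry TTTGAA and CCAAT, stood on opposite sides of 0.

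All 42 mitotic genes reached 1 FPKM in either library, the filter used, and they were abundant. Their median level was 60.6 FPKM without Dox and 53.7 FPKM with Dox, against 10.2 and 11.7 FPKM over the 14859 genes tested. A change is given as a log2 fold change, log2 of FPKM with Dox plus 0.1 over FPKM without Dox plus 0.1, and a gene is called where it is past 2-fold, a log2 fold change beyond 1. Only CCNB1 and SPC25 were past 2-fold lower (2 of 42, 4.76%), against 6.41% of all genes tested. None was past 2-fold higher, against 17.0% of all genes tested.

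The median log2 fold change of the mitotic genes was −0.15 (quartiles −0.47 and 0.14), while that of all genes tested was 0.15 (quartiles −0.32 and 0.71). The difference between these medians was −0.30. In all, 27 genes had values below 0 and 15 above 0, and 32 lay below the median of all genes. Within 1.5-fold of no change were 31 of the 42. Past 1.5-fold lower were 7 genes (SPC25, CCNB1, BUB1B, KIF20A, PTTG1, MAD2L1 and UBE2C), beside 15.4% of all genes tested, and past 1.5-fold higher were 4 (NDC80, CDC25C, CENPE and NCAPG), beside 29.3%. Summed over the 42 genes, the expected counts were 300402 without Dox and 291355 with Dox, or 0.654% and 0.598% of each library. The log2 ratio of these shares was −0.13, with a 95% counting interval of −0.14 to −0.12. For single genes this interval lay below 0 for 22 of the 42, against 31.8% of all genes tested, above 0 for 13, against 49.0%, and held 0 for 7. Counting intervals narrow as counts rise, and these shares were not matched for level. By the log2 ratio of count shares, MAD2L1 (−0.34), CDC25C (0.55), CENPE (0.58) and NCAPG (0.46) lay within 1.5-fold, unlike on the FPKM scale.

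**Figure D1:**
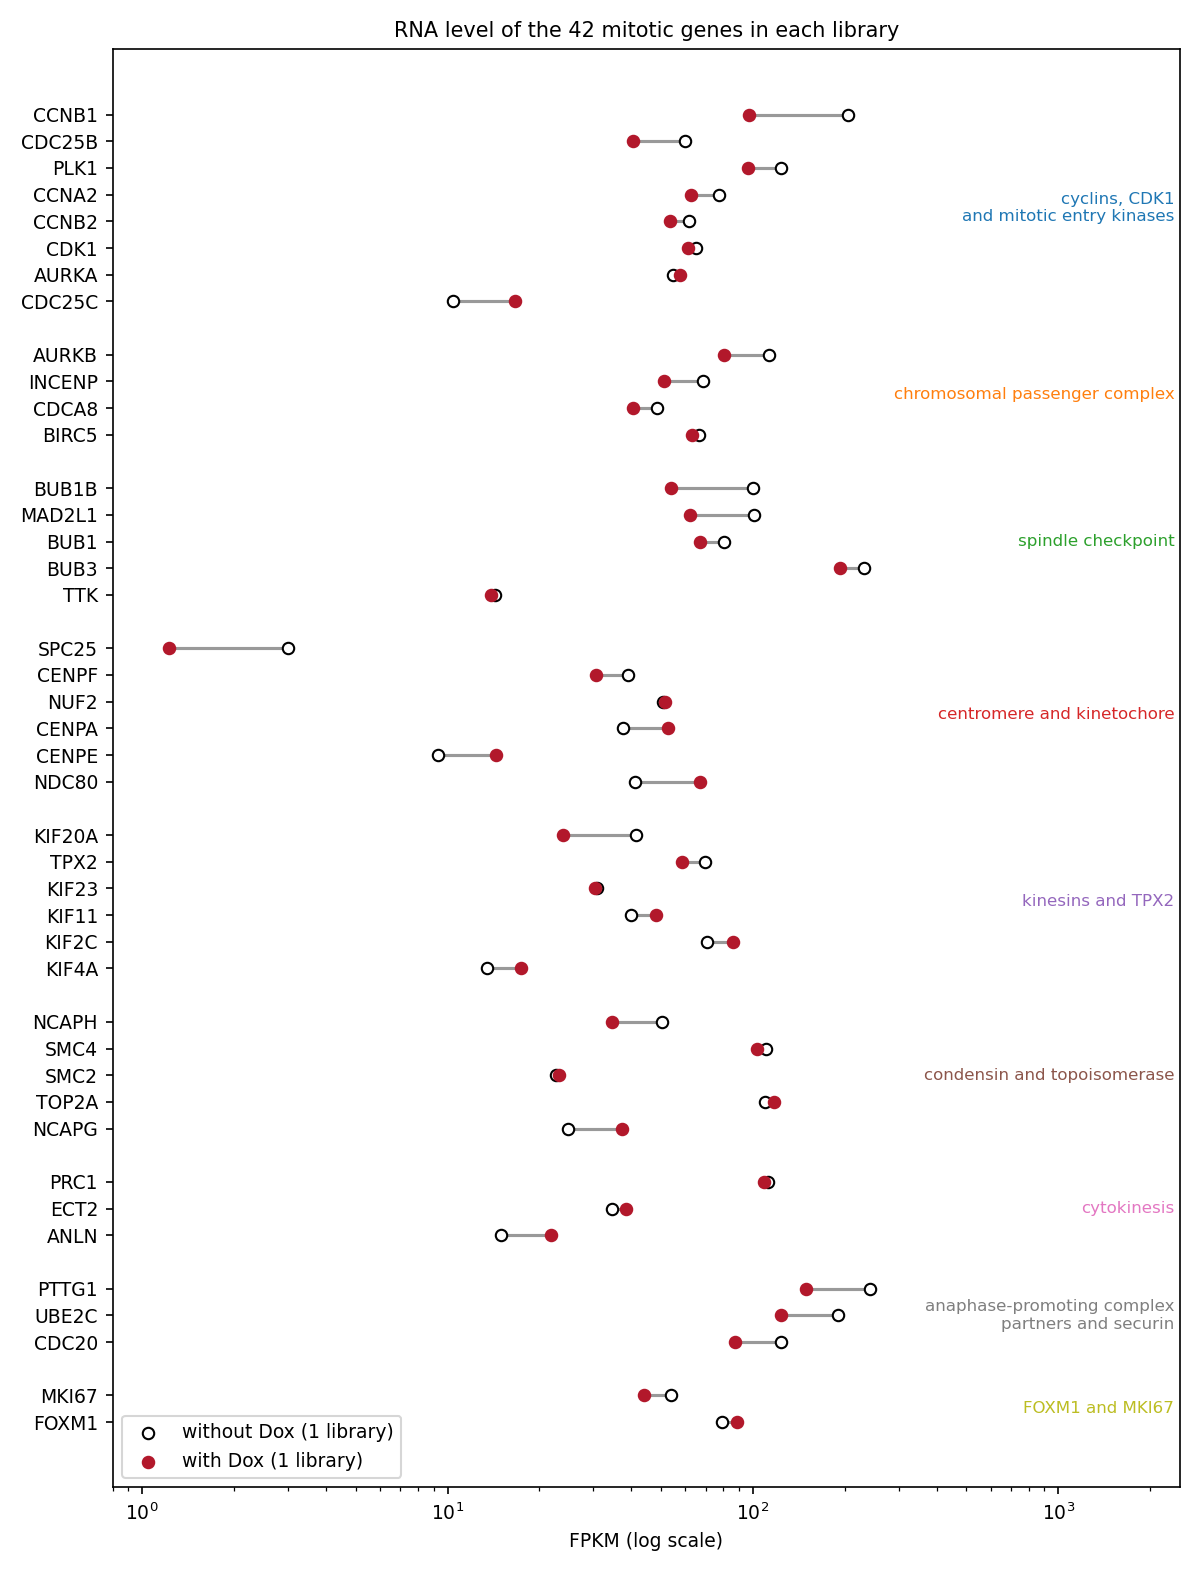
FPKM of each of the 42 mitotic genes on a log axis, with 1 point for the library without Dox and 1 for the library with Dox, grouped by function. The genes span 1.22 FPKM (SPC25 with Dox) to 241 FPKM (PTTG1 without Dox), and the paired points lie close together for most genes.

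Among the mitotic genes above 5 FPKM, the lowest log2 fold change was that of CCNB1, cyclin B1, the activating subunit of CDK1. CCNB1 (ENSG00000134057.14, chr5:69167010-69178245) stood at 205 FPKM without Dox and 96.8 FPKM with Dox, 2.12-fold lower, from 11093 and 5656 expected counts. Its log2 fold change was −1.08, and the log2 ratio of count shares was −1.06 (95% counting interval −1.10 to −1.01). In TPM its value was −0.99, just short of 2-fold. CCNB2, its paralog, stood at 61.5 and 53.4 FPKM (−0.20). The other cyclin, CCNA2, which acts in S phase and G2, stood at 77.4 and 62.9 FPKM (−0.30). CDK1 itself differed little, at 65.3 and 61.2 FPKM (−0.09). CCNB1 stayed the more abundant cyclin B gene in both libraries.

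The 2 CDC25 phosphatases among the 42 genes, which remove the inhibitory phosphates from CDK1, had opposite signs. CDC25B stood at 59.7 FPKM without Dox and 40.5 FPKM with Dox, a log2 fold change of −0.56. CDC25C, less abundant, stood at 10.4 and 16.6 FPKM, a log2 fold change of 0.67. CDC25A, which is not among the 42, stood at 21.7 and 16.7 FPKM (−0.37). PLK1, the Polo-like kinase of mitotic entry and spindle assembly, stood at 124 and 96.1 FPKM (−0.37). AURKA, the centrosomal Aurora kinase that activates PLK1, stood at 54.8 and 57.6 FPKM (0.07). Over these 8 entry genes, 6 were below 0 and 2 above, with a median of −0.25 and a summed level of 659 and 485 FPKM.

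All 4 subunits of the chromosomal passenger complex, which corrects wrong attachments of chromosomes to the spindle, had lower FPKM with Dox. AURKB, its kinase, stood at 113 FPKM without Dox and 80.3 FPKM with Dox (−0.49). INCENP, its scaffold, stood at 68.6 and 51.0 FPKM (−0.43). CDCA8 (borealin) stood at 48.5 and 40.5 FPKM (−0.26). BIRC5 (survivin) differed least, at 66.7 and 63.3 FPKM (−0.08), and its value lay above 0 on the count scale (0.02). The Aurora kinases therefore stood apart, with AURKB lower and AURKA near no change.

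The 5 spindle checkpoint genes also all had lower FPKM with Dox, with a median log2 fold change of −0.25 and a summed level of 526 and 391 FPKM. BUB1B, which encodes the BUBR1 subunit of the mitotic checkpoint complex, stood at 100 FPKM without Dox and 54.1 FPKM with Dox (−0.89). MAD2L1, the MAD2 protein that binds and blocks CDC20, stood at 101 and 62.3 FPKM (−0.69). These 2 subunits of the checkpoint complex were the lowest of the 5. BUB3, their partner, stood at 230 and 194 FPKM (−0.25). BUB1, a kinetochore kinase, stood at 80.1 and 67.2 FPKM (−0.25). TTK (MPS1), the kinase that starts checkpoint signalling, was much less abundant and stood at 14.4 and 13.9 FPKM (−0.05).

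Part of the checkpoint values depended on the length that the deposited files assign to each gene, the mean over its transcripts weighted by their estimated share. FPKM divides by that length, so a longer assigned length lowers FPKM at the same count. The assigned length of BUB1B was 2524 bases without Dox and 2962 bases with Dox. Its log2 ratio of count shares was −0.64, closer to 0 than its FPKM value. MAD2L1 went from 1464 to 1808 bases, with a ratio of count shares of −0.34. BUB3 went from 1281 to 1488 bases, with a ratio of 0.01. These 3 were the only members whose 2 scales differed by more than 0.2. The summed FPKM of the checkpoint genes depended on these lengths in the same way. PRC1 was the fourth gene whose assigned length moved by more than 10%, from 1573 to 1741 bases. BUB1B has 11 annotated transcripts of 439 to 3725 bases, and 5 of them are retained-intron transcripts. Which transcripts carried the reads was not tested, because the files give 1 value per gene.

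**Figure D2:**
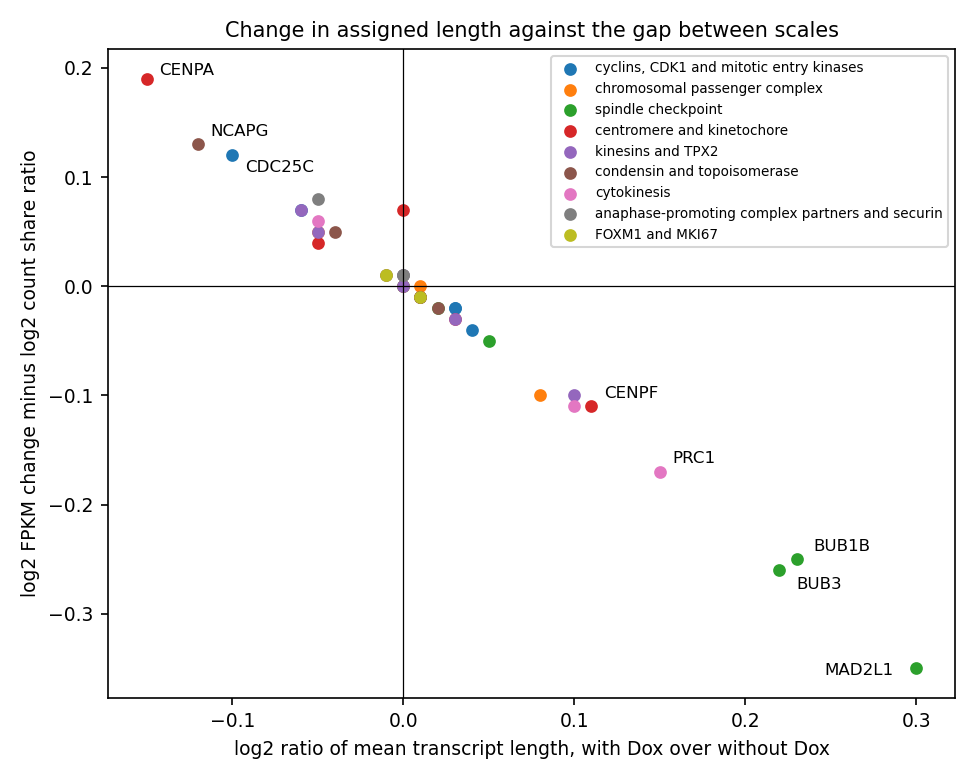
Log2 ratio of the assigned transcript length, with Dox over without, on the horizontal axis, against the log2 fold change of FPKM minus the log2 ratio of count shares on the vertical axis, with 1 point per mitotic gene. The checkpoint genes MAD2L1, BUB3 and BUB1B lie farthest to the lower right, where length was assigned longer and FPKM lay below the count scale.

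The 6 centromere and kinetochore genes spread most widely, from the lowest to the highest value of all 42. NDC80 (HEC1), the microtubule-binding subunit of the NDC80 complex (chr18:2571511-2616635), stood at 41.0 FPKM without Dox and 67.3 FPKM with Dox. Its log2 fold change of 0.71 was the highest of the 42, and its log2 ratio of count shares was 0.74 (0.68 to 0.80) from 3221 and 5711 expected counts. NUF2, its direct partner, stood at 50.7 and 51.6 FPKM (0.03). SPC25, which anchors the complex to the kinetochore (chr2:168834132-168913371), stood at 3.0 and 1.22 FPKM, the lowest level of all members in each library. Its log2 fold change was −1.23, and its expected counts of 153 and 66.1 gave a ratio of −1.30 with a wide interval of −1.74 to −0.87. SPC24, the other anchoring subunit and not among the 42, stood at 31.8 and 24.5 FPKM (−0.37). The 4 subunits of this complex thus had values from −1.23 to 0.71, and SPC25 was the only one below 5 FPKM.

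CENPA, the histone H3 variant that marks centromeres, stood at 37.4 FPKM without Dox and 52.6 FPKM with Dox (0.49). On the count scale its value was 0.30. CENPE, a kinetochore kinesin that moves chromosomes to the spindle equator, stood at 9.31 and 14.4 FPKM (0.62). CENPF, a large kinetochore protein of G2 and M phase, stood at 39.0 and 30.7 FPKM (−0.34). Of the 6 genes, 4 were above 0 and 2 below, the median was 0.26, and the summed level was 180 and 218 FPKM.

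The 5 kinesins and TPX2 were evenly divided, with 3 above and 3 below 0, and their summed level was 266 and 264 FPKM. KIF20A, a kinesin of the central spindle, was the lowest, at 41.3 FPKM without Dox and 23.9 FPKM with Dox (−0.79). KIF23, another central spindle kinesin, stood at 30.9 and 30.3 FPKM (−0.03). TPX2, which activates AURKA on the spindle, stood at 69.5 and 58.7 FPKM (−0.24). The 3 above 0 were KIF4A, a chromosome-bound kinesin, at 13.5 and 17.4 FPKM (0.36), KIF2C (MCAK), a microtubule depolymerase, at 70.7 and 86.2 FPKM (0.29), and KIF11 (Eg5), the motor that pushes spindle poles apart, at 39.8 and 48.0 FPKM (0.27). KIF4B, a near-identical copy of KIF4A, had 14.0 and 12 expected counts, and how reads were shared between such copies was not given in the sources used here.

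Condensin, the complex that compacts mitotic chromosomes, showed little difference in its core and opposite signs in NCAPG and NCAPH. The SMC2 and SMC4 core subunits stood at 22.7 and 23.2 FPKM (0.03) and at 110 and 103 FPKM (−0.10). NCAPG stood at 24.9 FPKM without Dox and 37.4 FPKM with Dox (0.59). NCAPH, the subunit that closes the condensin I ring, stood at 50.5 and 34.7 FPKM (−0.54). TOP2A, the topoisomerase that untangles sister chromosomes, stood at 110 and 118 FPKM (0.10). The summed level of the 5 genes was 318 and 316 FPKM. The 4 other condensin subunits, listed for comparison, all had values below 0 with a median of −0.16, and NCAPH2 was the lowest at 70.2 and 55.8 FPKM (−0.33).

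In cytokinesis, the division of the cell body, ANLN (anillin) stood at 15.0 FPKM without Dox and 21.8 FPKM with Dox (0.54). ECT2, the exchange factor that activates RhoA at the division plane, stood at 34.6 and 38.4 FPKM (0.15). PRC1, which bundles the microtubules of the central spindle, stood at 112 and 109 FPKM (−0.05), with a value of 0.12 on the count scale.

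The 3 partners and targets of the anaphase-promoting complex were the group with the lowest median, −0.62, and together went from 555 to 360 FPKM. PTTG1 (securin), which holds separase inactive until anaphase, was the most abundant of all 42 genes without Dox, at 241 FPKM, and stood at 149 FPKM with Dox (−0.70). UBE2C, the ubiquitin-conjugating enzyme of the complex, stood at 191 and 124 FPKM (−0.62). CDC20, its mitotic activator, stood at 123 and 87.1 FPKM (−0.50). All 3 values lay below 0 under every scaling, filter and pseudocount tried, but none was past 2-fold as deposited. Their near-identical copies held few reads: UBE2CP2 had 3 and 13 expected counts, PTTG2 had 1 and 0, and CDC20P and PTTG4P had 0 in both libraries.

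FOXM1, the transcription factor of G2 genes, stood at 79.4 FPKM without Dox and 88.8 FPKM with Dox (0.16), at the median of all genes tested. MKI67, the Ki-67 proliferation antigen, stood at 54.1 and 44.1 FPKM (−0.29).

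**Figure D3:**
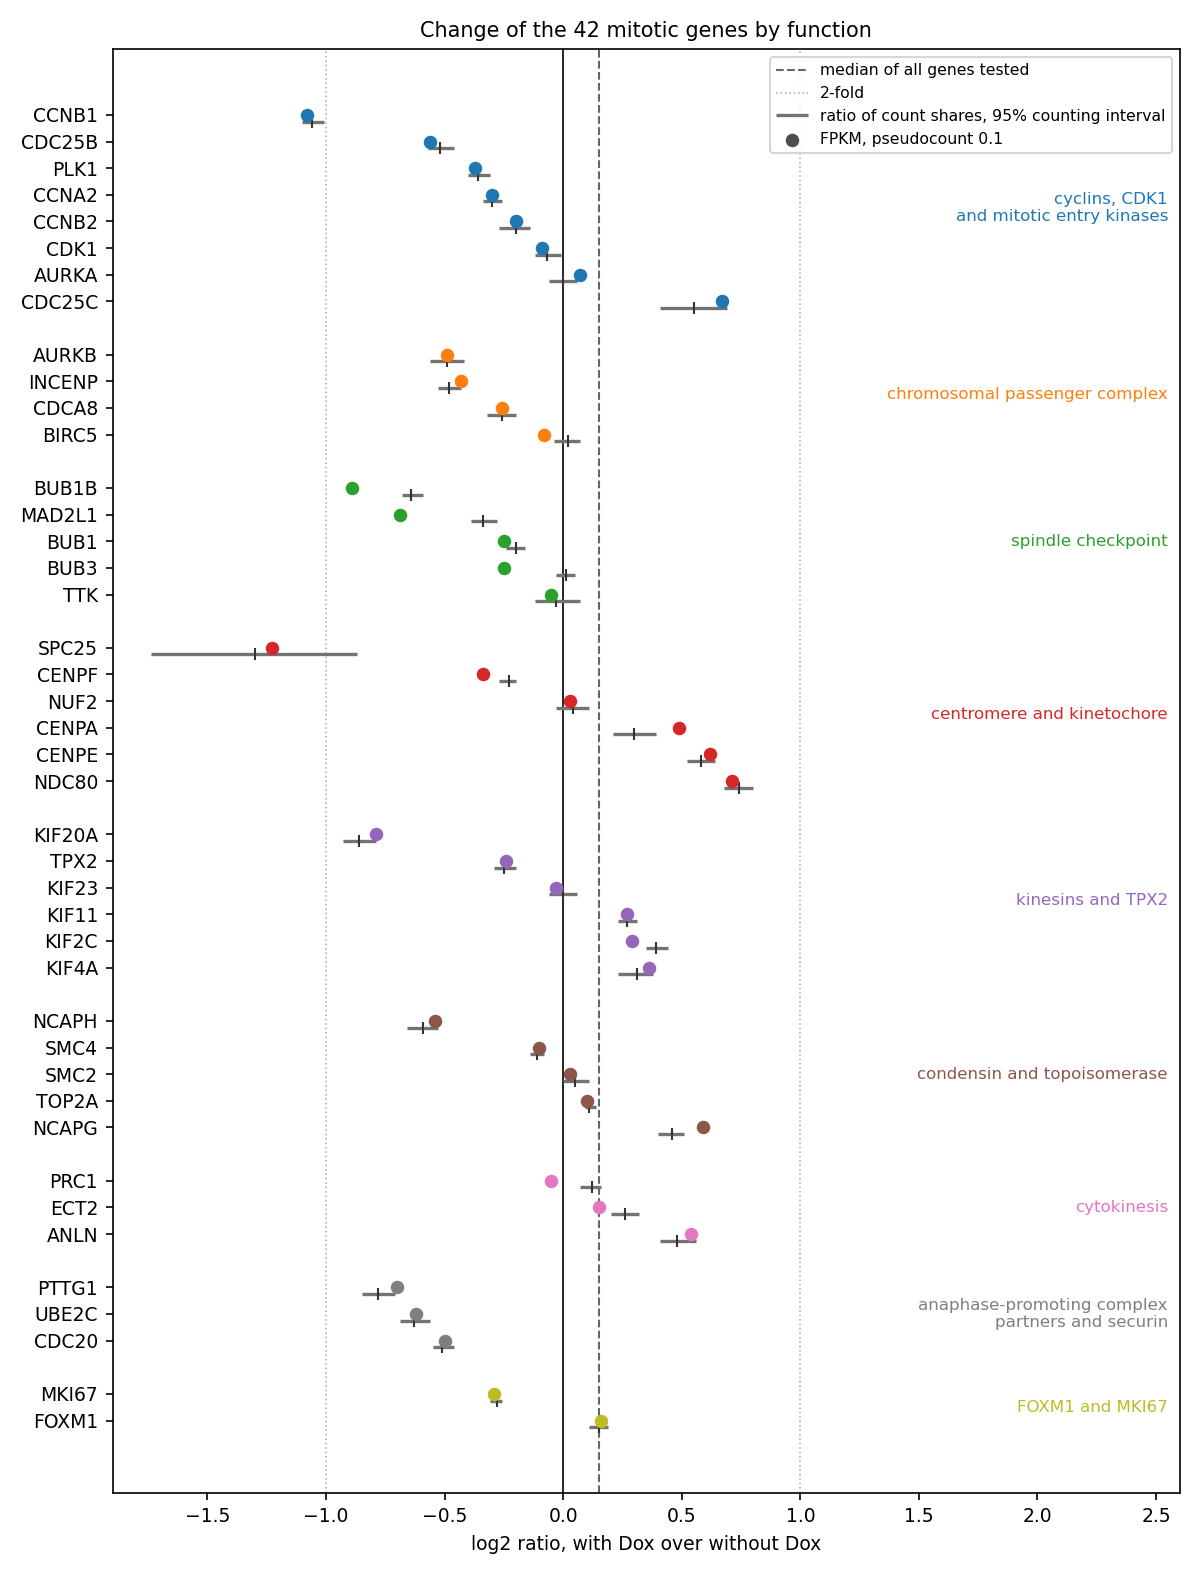
Log2 fold change of FPKM (points) and log2 ratio of count shares with its 95% counting interval (bars) for each of the 42 mitotic genes, by function, with the median of all genes tested at 0.15 as a dashed line and 2-fold as dotted lines. All points of the chromosomal passenger, checkpoint and anaphase-promoting complex partner groups lie left of 0, and CCNB1 and SPC25 alone lie beyond 2-fold.

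Across the 42 genes, 21 had values below 0 under every scaling, filter and pseudocount tried and 9 had values above 0 under every one, while 12 changed sign. The 9 were CDC25C, CENPA, CENPE, NDC80, KIF11, KIF2C, KIF4A, NCAPG and ANLN. BIRC5, BUB3 and TTK were among the 12, so the statement that every passenger and checkpoint gene was lower holds on the FPKM scale but not on every scale.

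The change ran with the level of the gene. Among all genes tested the median log2 fold change was 0.46 for genes with a mean under 5 FPKM, 0.18 from 5 to 25 FPKM, −0.02 from 25 to 100 FPKM and −0.13 from 100 FPKM. The mitotic genes in the last 3 ranges had medians of 0.45 (6 genes), −0.22 (26 genes) and −0.37 (9 genes), and SPC25 was the only member in the lowest range. Spearman's rho between level and log2 fold change was −0.39 over the 42 genes and −0.25 over all genes tested, as a description across genes that share the same 2 libraries. Against abundant genes alone, those with a mean of at least 25 FPKM (4520 genes, a range chosen after the values were seen), the median was −0.25 for the 35 mitotic genes and −0.05 for all. Of these 35, CCNB1 was past 2-fold lower, against 5.69% of all such genes, and none was past 2-fold higher, against 6.86%. The part of level in the difference between mitotic and other genes was not tested further. Members with longer transcripts tended to have higher values: rho between assigned length and log2 fold change was 0.39 over the 42 genes and −0.01 over all genes tested.

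**Figure D4:**
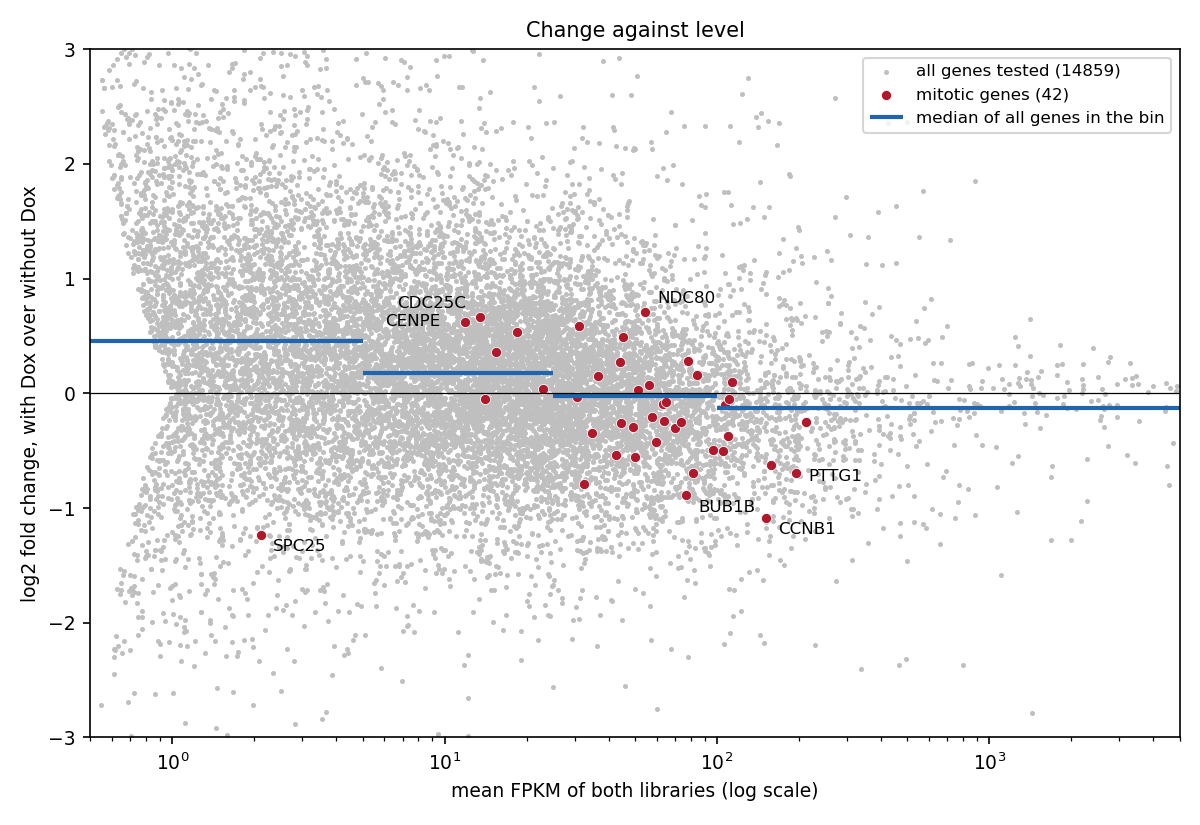
Log2 fold change of FPKM, with Dox over without, against the mean FPKM of both libraries on a log axis, for all genes tested (grey) and the 42 mitotic genes (red), with the median of all genes in 4 level ranges as blue lines. The axes stop at ±3 and 5000 FPKM, which leaves 343 grey points outside, and the median of all genes falls from 0.46 to −0.13 with level.

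Other genes of mitosis and the cell cycle, listed for comparison, are given by their calls past 2-fold, to be read against 6.41% lower and 17.0% higher over all genes tested. Among genes with a mean of at least 25 FPKM these shares were 5.69% and 6.86%. Among 14 core subunits of the anaphase-promoting complex, 0 were called lower and 1 higher, ANAPC16, at 32.7 FPKM without Dox and 116 FPKM with Dox (1.82). ANAPC1 stood at 39.1 and 25.1 FPKM (−0.64), and 9 of the 14 were above 0 and 5 below. Among 15 cohesin and separase genes none was called, and SGO1, which protects centromeric cohesion, stood at 11.3 and 16.4 FPKM (0.54). SMC1A stood at 79.9 and 56.9 FPKM (−0.49), and 12 of the 15 were above 0 and 3 below. Among 30 other centromere and kinetochore genes, with a median of −0.03, SKA1, a microtubule-binding kinetochore protein, was the 1 called, higher, at 31.4 and 78.0 FPKM (1.31). KNL1, the kinetochore scaffold listed under its older symbol CASC5, stood at 21.3 and 22.3 FPKM (0.07). Among 32 other spindle and kinesin genes, with a median of −0.01, the 1 called was KIF2A, a microtubule depolymerase, higher at 77.5 and 167 FPKM (1.11). The list also held TROAP at 99.2 and 54.0 FPKM (−0.88) and FAM83D at 13.4 and 7.42 FPKM (−0.85).

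The factors that transcribe or repress mitotic genes had a higher median than the mitotic genes themselves, with both signs among them. The lists compared in this paragraph were not matched for level. Over all genes tested the median fell with level, from 0.46 under 5 FPKM to −0.13 from 100 FPKM. The 15 MuvB, DREAM and B-MYB factors had a median of 0.30, and the 1 called was NFYB, a subunit of the CCAAT-binding factor NF-Y, higher at 14.1 FPKM without Dox and 29.1 FPKM with Dox (1.04). LIN52 stood at 7.32 and 13.3 FPKM (0.85), and RBL1 (p107), a repressor subunit of DREAM, at 8.53 and 14.8 FPKM (0.79). The list held 12 genes above 0 and 3 below. Those below, named after their values were seen, were MYBL2, which encodes B-MYB, at 143 and 107 FPKM (−0.43), TFDP1, the partner of E2F factors, at 141 and 94.3 FPKM (−0.58), and E2F4, the E2F of the repressive DREAM complex, at 93.4 and 78.0 FPKM (−0.26). RBBP4, the most abundant gene of the list, lay above 0, at 177 and 221 FPKM (0.32). Among 10 regulators and brakes of CDK1, with a median of −0.11, CDKN1A (p21) was the 1 called, higher at 1.08 and 2.95 FPKM (1.37). CDKN1A lay under 5 FPKM in both libraries and is named because of that call. CKS1B, a CDK-binding subunit, stood at 362 and 510 FPKM (0.50). CHEK2 stood at 32.25 and 22.93 FPKM (−0.49) and PKMYT1 at 56.0 and 42.1 FPKM (−0.41). Of these 10 regulators and brakes, 5 were above 0 and 5 below. DNA replication genes, which act in S phase, had a lower median than the mitotic genes, −0.35 over 38 genes, and 2 (5.26%) were past 2-fold lower, near the 6.41% of all genes tested. They were POLD1, the catalytic subunit of DNA polymerase delta, at 69.9 and 30.5 FPKM (−1.19), and RRM2, a subunit of ribonucleotide reductase, at 565 and 250 FPKM (−1.17).

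All 42 genes carried the Gene Ontology term mitotic cell cycle in the deposited files, which follows from how they were chosen. Wider sets, added after the values were seen, lay closer to the median of all genes than the 42 did. The 217 other genes annotated to mitotic nuclear division had a median of 0.00, with 6 (2.76%) past 2-fold lower and 12 (5.53%) higher. The 867 other genes annotated to the mitotic cell cycle had a median of 0.05, with 40 (4.61%) lower and 69 (7.96%) higher. These shares lay below those over all genes tested, 6.41% lower and 17.0% higher. Among genes with a mean of at least 25 FPKM the shares were 5.69% lower and 6.86% higher, and 7.96% was not below the latter. The wider sets were not limited by level.

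With 1 library per condition the spread between replicates cannot be estimated, and a count test runs only on an assumed one. In the exact test of edgeR with an assumed coefficient of variation between replicates of 0.4, a false discovery rate of 0.05 and 2-fold, none of the 42 genes was called lower, against 0.125% of 19934 genes, and none higher, against 0.707%. With an assumed coefficient of 0.2, CCNB1 and SPC25 were called lower, against 5.68% of genes, and none higher, against 9.82%. These calls compare the 2 libraries, not the conditions.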

How the data were processed

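Poly(A) RNA from ARP1 cells was sequenced as 150-base read pairs, 1 library without and 1 with Dox. The deposited tables give, per gene, the authors' expected count, TPM, FPKM and mean transcript length, in the format of RSEM gene results. The labels name hg19, Bowtie 0.12.2, HISAT2 2.1.0 and StringTie 1.3.4d without their roles, but all 346 transcripts listed for the 42 genes are in GENCODE release 29 (GRCh38), whose coordinates are printed. How reads shared by near-identical copies were divided is not given in the sources used here. The members and the comparison lists were chosen with earlier results of these data known.

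FPKM values were tested as log2(FPKM + 0.1) differences, with no p-value, in genes that reached 1 FPKM in either library, and a call was more than 2-fold. Counting intervals are exact Clopper-Pearson 95% intervals of the rounded expected counts, scaled by library totals, and cover counting error only. Alternatives used pseudocounts of 1 and 0.01, no filter, 5 FPKM, TPM, count shares (prior count 0.5), TMM (edgeR 4.0.16), DESeq2 1.42.0 size factors, centring and 1.5-fold. The count scripts were tested on simulated data. Named genes were all members, SRD5A1, defining markers, copies of members and, per comparison list, up to 3 genes with the largest absolute change at 5 FPKM or more in 1 library. KNL1, SPC24, CDC25A, CDKN1A, MYBL2, TFDP1, E2F4 and RBBP4 were added after their values were seen. Motifs were searched as letters on both strands of RefSeq promoter windows.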

Additional observations from a re-analysis of the deposited data

How the results depend on the processing

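The median log2 fold change of the mitotic genes, −0.15 as deposited, was −0.10 among genes with at least 5 FPKM, −0.05 in TPM, −0.09 on count shares, −0.36 with TMM factors, −0.37 with DESeq2 size factors and −0.30 after centring. The median of all genes moved from 0.15 to 0.25 in TPM, to −0.05 and −0.06 with TMM and DESeq2, and to 0.08 at 5 FPKM, where the gap to the mitotic genes was narrowest, 0.17. The mitotic genes lay below all genes by 0.17 to 0.32 under every alternative. Splits of members below and above 0 were 27 and 15 as deposited, 22 and 20 in TPM and 33 and 9 with TMM or DESeq2. Over all genes, the 953 lower and 2521 higher calls became 1527 and 1946 with TMM, 1562 and 1922 with DESeq2 and 781 and 2834 in TPM. The 2 members past 2-fold lower became 1 with a pseudocount of 1 or at 5 FPKM, where SPC25 was lost, and 1 in TPM, where CCNB1 was lost. They became 3 with TMM factors and 3 after centring, which both added BUB1B (−1.1 and −1.04). With DESeq2 they became 4, which added BUB1B (−1.11) and KIF20A (−1.01). At 1.5-fold they became 7, while the 0 past 2-fold higher became 4. With TMM and DESeq2 factors the highest member value, that of NDC80, was 0.50 and 0.49, short of 1.5-fold. The 66.1 expected counts of SPC25 with Dox limit its precision. No paired analysis was possible because each condition had 1 library, and none could be left out.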

Other observations

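Of 37 other genes of the KIF kinesin family, a list added after the values were seen, 24 were tested, with a median log2 fold change of 0.23, and the summed level of all 37 was 446 FPKM without Dox and 562 FPKM with Dox. Calls were 3 lower (12.5%, against 6.41% of all genes tested) and 2 higher (8.33%, against 17.0%). Past 2-fold lower were KIFC3 (11.14 and 3.90 FPKM), KIF7 (2.31 and 0.77 FPKM) and KIF3C (5.08 and 1.85 FPKM), and past 2-fold higher were KIF21B (16.9 and 75 FPKM) and KIF2A (77.5 and 167 FPKM), named after their values were seen. Together KIF21B and KIF2A rose by more than the summed level of all 37 did. KIF2A is also in the spindle and kinesin list above. CDC20B, a paralog of CDC20, had 5 and 70 expected counts (0.06 and 0.64 FPKM), below the filter in both libraries.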
